A study of Mus musculus with 3 samples.

Results

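The contractile genes of smooth muscle were followed through ectopic tissue masses of CD1 mice, an outbred strain, 5 days after implantation. The set is 9 of the 31053 genes in the matrices, chosen by symbol: the actins Acta2 and Actg2, the myosin chains Myl9 and Myh11, the thin-filament proteins Tagln, Cnn1, Tpm1 and Tpm2, and the intermediate filament protein Des. There were 3 groups with 1 library each. In the antibody library the implant was Matrigel, a gel of basement membrane proteins, with recombinant human BMP2, an inducer of ectopic cartilage and bone, and the mice received a systemic neutralizing antibody to activin A. In the IgG library the implant was the same and the mice received pre-immune IgG. In the Matrigel library the implant was the gel without BMP2, and no IgG is named for those mice. The effects of BMP2 and of IgG therefore cannot be told apart in the contrast of IgG with Matrigel. In the contrast of antibody with Matrigel, the same holds for BMP2 and the antibody. The sources used here do not say how many animals each library pools.

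With no replicate there is no test and no p-value. The values compare these 3 libraries, and the 95% intervals given reflect the counting of UMIs or cells, not the spread between animals. Those of levels and ratios also leave out the spread between cells of a library, so they look narrower than the values are sure. A level is given in CPM, the gene's part of all UMIs of the cells summed, scaled to the same fixed total in each, where a UMI is a tag of 1 captured molecule. Genes under 10 UMIs on both sides of a comparison were not measured. A call of higher or lower needed a difference of 1.5 times or more and an interval that leaves out 1.

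The antibody, IgG and Matrigel libraries held 38163880, 46317250 and 44252421 UMIs, and 5682, 5674 and 8542 cells were kept. Mesenchymal cells were defined by at least 1% of UMIs from Col1a1, Col1a2 and Col3a1. They numbered 592 (10.4%) with antibody, 1478 (26.0%) with IgG and 1982 (23.2%) with Matrigel alone, with medians of 19186.5, 17191 and 8752.5 UMIs per cell. The remaining 5090, 4196 and 6560 cells, called other cells, were mostly blood cells. Cells with at least 0.1% of UMIs from the cartilage genes Col2a1 and Acan made up 58 of the mesenchymal cells in the antibody library, 565 with IgG and 0 in the Matrigel library. The pairs of libraries shared 6 barcodes (antibody and IgG), 13 (antibody and Matrigel) and 18 (IgG and Matrigel).

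In smooth muscle, force comes from myosin that slides along actin filaments, while tropomyosins, calponin and transgelin lie along the thin filament and desmin ties the filaments into the cell's skeleton. Many of these genes are also switched on in fibroblasts that take on a contractile state during wound healing, and TGF-beta family ligands are a known inducer. Their shared control runs through serum response factor (SRF) and its actin-sensing partners of the MRTF family, which bind a sequence named the CArG box. Activin A is a TGF-beta family ligand, made as a dimer of the product of Inhba, and Scx encodes scleraxis, a transcription factor of tendon cells and their progenitors.

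Since genes of this kind are known SRF targets, the RefSeq promoter windows of GRCm38.p6 were searched for the CArG box over the 250 bases before the start site. Windows were available for 6 of the 9 genes: Acta2, Myl9, Cnn1, Tpm1, Tpm2 and Des. A full CArG box was found in 1 of the 6, Myl9, against 1.47% of all 32851 windows. With up to 1 base outside that pattern, 3 of the 6 held 2 sites each, Acta2, Myl9 and Tpm1, against 18.6% of all windows. The pattern reads the same on both strands, and matches of different motifs were counted whether or not they overlap. A match is a string of letters and does not show that SRF binds there. The sites are shown with 10 bases on each side, 5′ to 3′ on the gene's strand, with the 10 bases of the match in capitals.
Acta2, chr19:34255438-34255467, minus strand: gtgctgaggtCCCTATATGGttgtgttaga
Acta2, chr19:34255388-34255417, minus strand: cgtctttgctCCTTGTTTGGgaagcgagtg
Myl9, chr2:156775293-156775322, plus strand: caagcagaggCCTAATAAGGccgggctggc
Myl9, chr2:156775355-156775384, plus strand: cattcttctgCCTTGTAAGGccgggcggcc
Tpm1, chr9:67049415-67049444, minus strand: gctcgggtccCCATATATAGtcatatccac
Tpm1, chr9:67049274-67049303, minus strand: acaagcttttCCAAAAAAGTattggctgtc

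The sites begin 84 and 34 bases before the RefSeq start in Acta2, 161 and 99 in Myl9, and 221 and 80 in Tpm1. GENCODE M21 starts Acta2 and Tpm1 farther upstream than RefSeq, so both Acta2 sites and the second Tpm1 site lie inside the gene spans of that annotation, and the others lie before them. Both Myl9 sites are seen in the longer stretch that precedes the gene's first annotated base, 206 bases on the plus strand of chr2:156775214-156775419, again with the matches in capitals.
Myl9: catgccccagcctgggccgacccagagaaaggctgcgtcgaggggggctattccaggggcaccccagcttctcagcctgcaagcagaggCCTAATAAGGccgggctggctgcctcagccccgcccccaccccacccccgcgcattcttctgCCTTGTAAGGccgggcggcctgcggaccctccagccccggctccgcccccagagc

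Shorter motifs were counted in the same windows on both strands. CAGAC, a core that SMAD proteins recognise, stood once in the Acta2 window and in no window of the other 5, against 42.2% of all windows. CATTCC, the MCAT core bound by TEAD factors, stood once each in Acta2 and Tpm1 (12.6% of all windows). CANNTG, the E-box that scleraxis and related factors bind, stood in all but Myl9, with 3 copies in Acta2 and 66.2% of all windows holding at least 1. The window of Inhba held none of these motifs.

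Across the mesenchymal cells, the contractile genes were high in the IgG library, low in the Matrigel library, and in the antibody library between those levels or at the level of one of them. Over Matrigel, 7 of 8 measured genes were higher in the IgG library and 0 were lower, where 14.2% of all 14339 measured genes were higher and 19.3% lower. In the antibody library, 5 of 8 were lower than in the IgG library and 0 were higher, where 8.93% of 14009 genes were lower and 8.26% higher. Over Matrigel, 5 of 8 were higher in the antibody library and 0 were lower, where 10.3% of 13772 genes were higher and 18.7% lower. The median log2 ratio of the measured genes was 1.79 for IgG over Matrigel, -0.98 for antibody over IgG and 1.22 for antibody over Matrigel, beside -0.03, -0.07 and -0.15 over all measured genes. These comparisons share libraries, so their ratios are not independent of each other. Fewer cells of a contractile kind and less RNA in each of them cannot be told apart in summed UMIs, so levels are followed below by shares of cells.

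**Figure D1:**
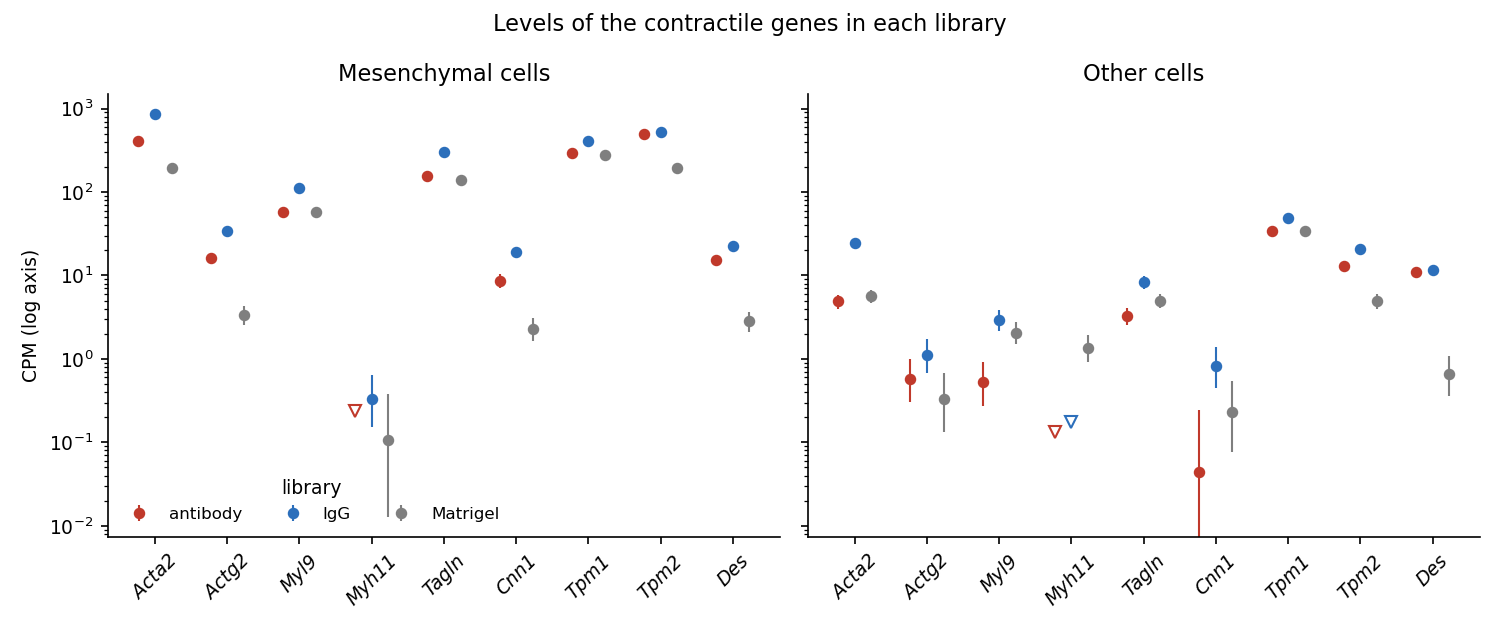
CPM (log axis) of the 9 genes in the mesenchymal cells (left) and the other cells (right) of the antibody, IgG and Matrigel libraries, with exact Poisson 95% intervals that cover counting error only; an open triangle marks the level of 3 UMIs where a gene had 0. In mesenchymal cells every measured gene was highest in the IgG library, Acta2 at 859 CPM, and levels in other cells were far lower except for Des and, in Matrigel, Myh11.

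Acta2 encodes alpha smooth muscle actin (ENSMUSG00000035783; chromosome 19, 34241090 to 34255590, minus strand, protein-coding; GENCODE M21 on GRCm38). It stood at 410 CPM in the antibody library (5234 UMIs, interval 399 to 422) and 859 CPM in the IgG library (23153 UMIs, 848 to 870), against 197 CPM in the Matrigel library (3705 UMIs, 190 to 203). The IgG level was 4.37 times that of Matrigel (4.22 to 4.52). The antibody level was 2.09-fold lower than that of IgG (ratio 0.478, 0.463 to 0.492) and still 2.09 times that of Matrigel (2.00 to 2.18).

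Actg2 encodes the gamma actin of visceral smooth muscle (ENSMUSG00000059430; chromosome 6, 83512905 to 83536265, minus strand). Its level was 16.2 CPM in the antibody library (207 UMIs), 34.1 CPM in IgG (918 UMIs) and 3.35 CPM in Matrigel (63 UMIs). The IgG over Matrigel ratio of 10.2 (7.89 to 13.4) was the highest among the 8 measured genes, and that of antibody over IgG was 0.476 (0.408 to 0.555), as for Acta2. The 10 cells richest in Actg2 carried 53.6% of its UMIs in the antibody library, 25.6% with IgG and 88.9% in the Matrigel library. Fewer cells held Actg2 in antibody and Matrigel than in IgG, so these parts do not compare how unevenly it was spread. In the annotated transcripts, the last 300 bases of Acta2 and Actg2 shared no run of 50 bases with each other or with Acta1, Actc1, Actb or Actg1, so reads of those ends need not be split between the actins.

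Among the myosin chains, Myl9, the regulatory light chain of smooth muscle and non-muscle myosin (ENSMUSG00000067818; chromosome 2, 156775420 to 156781658, plus strand), had 56.9 CPM in the antibody library (726 UMIs) and 113 CPM in the IgG library (3034 UMIs), against 57.9 CPM in the Matrigel library (1091 UMIs). It was 1.94 times as high in IgG as in Matrigel (1.81 to 2.08), and in the antibody library 1.98-fold lower than in IgG (ratio 0.506, 0.466 to 0.548). Antibody over Matrigel gave 0.983 (0.894 to 1.08), an interval that holds 1.

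Myh11, the heavy chain that marks mature smooth muscle (ENSMUSG00000018830; chromosome 16, 14194535 to 14291372, minus strand), was almost absent from the mesenchymal cells. It had 0 UMIs in the antibody library, which allows up to 0.507% of its 592 cells with a Myh11 UMI and 0.235 CPM, 9 UMIs in 8 IgG cells and 2 UMIs in 2 Matrigel cells. Too few UMIs were present for any ratio. The label of smooth muscle was therefore checked against 10 markers of mural cells, the pericytes and smooth muscle cells of vessel walls: Higd1b had 0 UMIs in the mesenchymal cells of all 3 libraries, and Rgs5 had 6, 10 and 10 UMIs in antibody, IgG and Matrigel. The summed level of the 10 markers was 1306, 1424 and 610 CPM, of which Ndufa4l2 took 1062, 1035 and 525 CPM and Cox4i2 177, 292 and 18.8 CPM. Cspg4 was likewise lowest in Matrigel, at 40.8, 76.7 and 12.7 CPM, while Kcnj8 (9.10, 6.64 and 29.8 CPM) and Abcc9 (7.14, 2.34 and 15.2 CPM) were highest there. Notch3, Mcam and Vtn stayed under 6 CPM in each library. The markers thus did not move as one, and their part in the differences was not tested. Leaving out cells with at least 2 of the other 8 markers (73, 125 and 162 cells) gave 7 genes higher for IgG over Matrigel, 6 lower for antibody over IgG and 5 higher for antibody over Matrigel. Leaving out the larger sets with at least 2 of all 10 markers (398, 1129 and 575 cells) gave 8, 8 and 3. Among cells without cartilage genes, those with at least 2 of the 10 markers were deeper than the remaining ones. The medians were 24392 against 10688 UMIs in antibody, 18714 against 12630 in IgG and 10848 against 7986 in Matrigel. This setting thus also left out deeper cells, and the part of depth in its counts was not tested. Myh11, Higd1b and Rgs5 were thus at or near 0, while Ndufa4l2, Cox4i2 and Cspg4 were not. The label of smooth muscle is used here for the genes, and whether some of these cells are mural was not tested.

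The thin-filament genes divided by how far they followed Acta2. Tagln, the actin-binding protein transgelin or SM22 (ENSMUSG00000032085; chromosome 9, 45929619 to 45936058, minus strand), stood at 155 CPM in the antibody library (1973 UMIs) and 306 CPM in the IgG library (8247 UMIs), against 140 CPM in the Matrigel library (2643 UMIs). It was 2.18 times as high in IgG as in Matrigel (2.09 to 2.28) and 1.98-fold lower in antibody than in IgG (ratio 0.506, 0.481 to 0.531), which left it within 1.10 times the Matrigel level (1.04 to 1.17). Cnn1, calponin of smooth muscle (ENSMUSG00000001349; chromosome 9, 22099216 to 22109630, plus strand), stood at 8.63 CPM (110 UMIs), 19.2 CPM (517 UMIs) and 2.28 CPM (43 UMIs) in the antibody, IgG and Matrigel libraries. Its ratios were 8.40 for IgG over Matrigel (6.15 to 11.8), 0.450 for antibody over IgG (0.363 to 0.553) and 3.78 for antibody over Matrigel (2.63 to 5.51). Antibody over Matrigel was thus called for Cnn1 and not for Tagln or Myl9.

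The tropomyosins, which wrap along actin filaments and set which myosins can bind, had the antibody over IgG ratios closest to 1. Tpm2 (ENSMUSG00000028464; chromosome 4, 43514711 to 43523765, minus strand) had 498 CPM in the antibody library (6353 UMIs) and 527 CPM in the IgG library (14193 UMIs), against 193 CPM in the Matrigel library (3630 UMIs). Its antibody over IgG ratio was 0.946 (0.918 to 0.974), and it was 2.58 times as high in antibody as in Matrigel (2.48 to 2.69) and 2.73 times as high in IgG as in Matrigel (2.63 to 2.84). Tpm1 (ENSMUSG00000032366; chromosome 9, 67022590 to 67049406, minus strand) had 297 CPM in the antibody library (3781 UMIs) and 409 CPM in the IgG library (11013 UMIs), against 275 CPM in the Matrigel library (5178 UMIs). Its IgG over Matrigel ratio of 1.49 (1.44 to 1.54) was just short of the threshold, which it passed at 1.53 when libraries were scaled by the median of gene ratios, and antibody over IgG gave 0.725 (0.699 to 0.753). Both genes have many isoforms, which counts per gene do not separate.

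Des, the intermediate filament protein of muscle (ENSMUSG00000026208; chromosome 1, 75360329 to 75368579, plus strand), had 15.5 CPM in the antibody library (197 UMIs) and 22.3 CPM in the IgG library (601 UMIs), against 2.81 CPM in the Matrigel library (53 UMIs). It was 7.93 times as high in IgG as in Matrigel (5.98 to 10.7) and 5.49 times as high in antibody as in Matrigel (4.04 to 7.58), and the antibody over IgG ratio of 0.693 (0.587 to 0.815) was not called. The 10 richest cells held 49.7%, 20.6% and 47.2% of its UMIs in the antibody, IgG and Matrigel libraries. Skeletal muscle markers were low in the mesenchymal cells, with 12 markers summing to 8.86, 14.4 and 7.06 CPM in the same order, and Myh4, Myh1 and Myog at 0 in all 3. Without the 9, 36 and 6 cells that held at least 2 of these markers, 7 genes were higher for IgG over Matrigel, 6 lower for antibody over IgG and 5 higher for antibody over Matrigel.

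For reference, Inhba stood at 800 CPM in antibody, 688 CPM in IgG and 26.0 CPM in Matrigel mesenchymal cells, and Scx at 7.76, 38.7 and 5.15 CPM. Between the BMP2 libraries Inhba was not called, at 1.16 for antibody over IgG (1.13 to 1.19), and without cartilage-gene cells it stood at 850 CPM in antibody and 838 CPM in IgG. Scx was 4.99-fold lower in antibody than in IgG (ratio 0.201, 0.162 to 0.247).

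Cells that express cartilage genes carried less of the contractile genes, and they were unequally spread over the libraries. In the IgG library all 8 measured genes were lower in the 565 cartilage-gene cells than in the 913 remaining mesenchymal cells and 0 were higher, where 13.7% of 13390 genes were lower and 7.49% higher. Acta2 had 316 CPM in the cartilage-gene cells against 1193 CPM in the remaining cells (3.77-fold lower, interval 3.63 to 3.92), and Tagln 110 CPM against 427 CPM. Tpm1 differed least there, at 311 CPM against 469 CPM (1.51-fold lower). In the antibody library 5 of 8 were lower in the 58 cartilage-gene cells than in the remaining 534 and 0 were higher, where 11.5% of 12690 genes were lower and 8.83% higher. The 5 were Acta2, at 276 CPM against 424 CPM, Actg2, Myl9, Tagln and Tpm2. Cnn1, Tpm1 and Des were neither, with Cnn1 at 9.15 CPM in the cartilage-gene cells and 8.57 CPM in the rest.

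**Figure D2:**
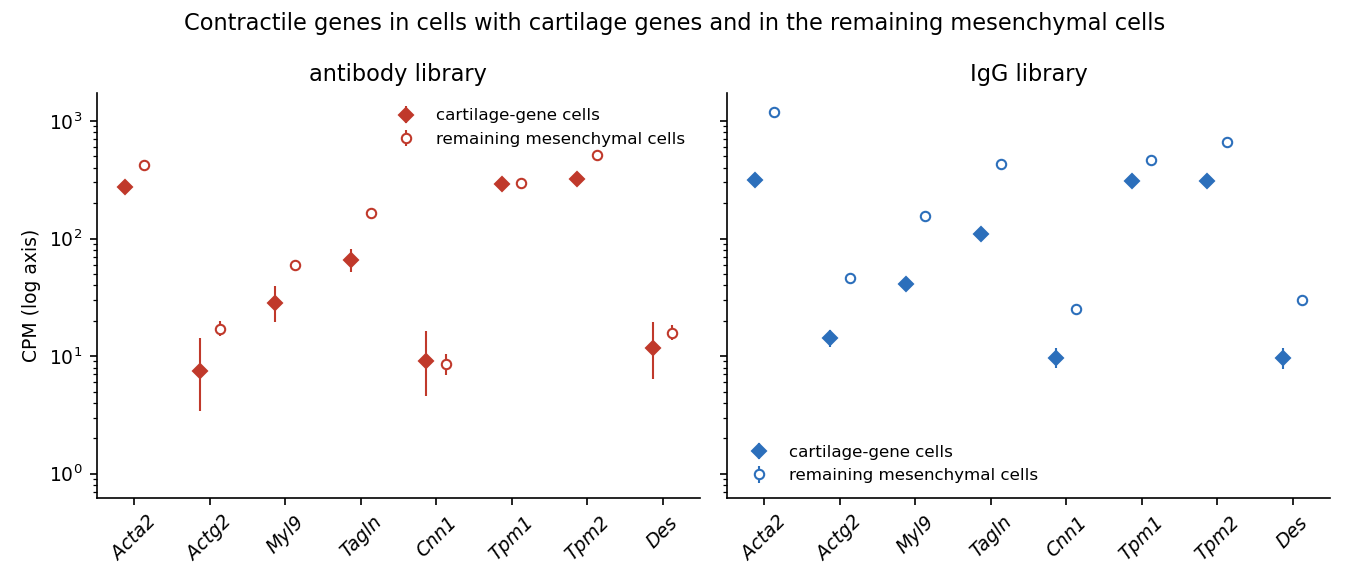
CPM (log axis) of the 8 measured genes in mesenchymal cells with at least 0.1% of UMIs from Col2a1 and Acan (filled diamonds) and in the remaining mesenchymal cells (open circles), in the antibody library (left) and the IgG library (right), with exact Poisson 95% intervals. In the IgG library each diamond lies below its circle, by 3.77 times for Acta2 and 1.51 times for Tpm1.

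Leaving the cartilage-gene cells out widened the distance between the antibody and IgG libraries. Acta2 then stood at 424 CPM in the antibody library, 1193 CPM with IgG and 197 CPM in the Matrigel library, a ratio of 0.356 for antibody over IgG (0.345 to 0.367) and of 6.06 for IgG over Matrigel (5.85 to 6.28). In those cells 8 of 8 genes were higher in IgG than in Matrigel, Tpm1 included at 1.71, and 7 of 8 were lower in antibody than in IgG, Tpm1 at 0.633 and Des at 0.526 included. Tpm2 remained the exception at 0.782 (0.758 to 0.807). Antibody over Matrigel kept 5 genes higher, Acta2, Actg2, Cnn1, Tpm2 and Des. Shares over all genes were not computed without the cartilage-gene cells, so these counts have no background beside them.

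**Figure D3:**
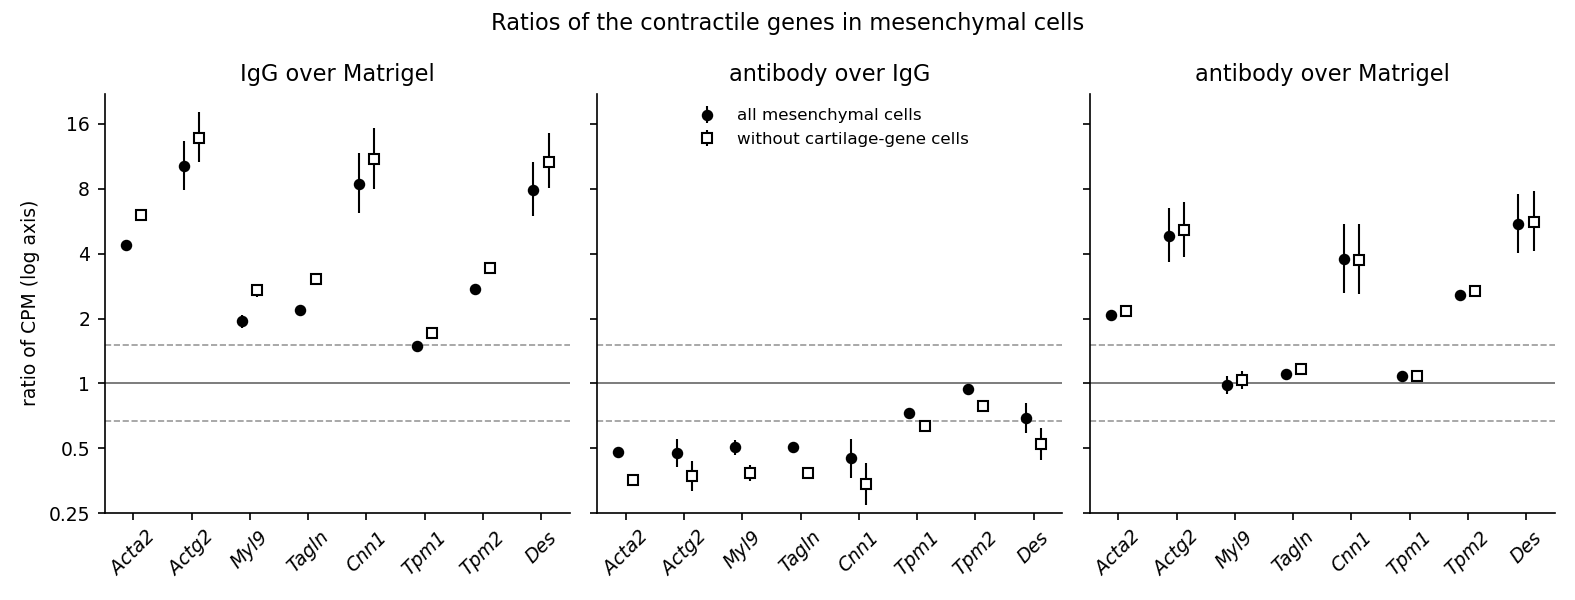
Ratios of CPM in mesenchymal cells (log axis) for IgG over Matrigel, antibody over IgG and antibody over Matrigel, with exact conditional binomial 95% intervals; filled circles are all mesenchymal cells, open squares leave out cartilage-gene cells, and dashed lines mark a ratio of 1.5 in either direction. Tpm2 stays near 1 for antibody over IgG (0.946), where Acta2, Actg2, Myl9, Tagln and Cnn1 lie between 0.450 and 0.506.

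Shares of cells were compared after each mesenchymal cell had been thinned to 5000 UMIs, which kept 519, 1354 and 1586 cells and left out 73, 124 and 396 shallower cells of the antibody, IgG and Matrigel libraries. Acta2 was detected in 41.4% of cells in the antibody library (37.2 to 45.8), 56.6% with IgG (54.0 to 59.3) and 19.2% in the Matrigel library (17.3 to 21.2). The unthinned shares were 51.2%, 67.7% and 21.6%. Among blood cells, which should lack the gene, 61 of 4655, 206 of 3874 and 73 of 6130 held an Acta2 UMI, at medians of 3443, 3225 and 2980 UMIs per cell. Cells with Acta2 held a mean of 4.07 UMIs of it in the antibody library, 6.82 with IgG and 3.89 in the Matrigel library, so both the share of cells and the amount per positive cell were highest with IgG. Cells with at least 5 Acta2 UMIs made up 12.3%, 26.3% and 5.04%.

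Tpm1 was the most widely detected, in 68.0%, 73.0% and 60.7% of the thinned antibody, IgG and Matrigel cells, and Tpm2 was detected in 61.3%, 69.7% and 34.2%. Tagln was found in 24.3%, 37.2% and 16.8% of those cells, and Myl9 in 21.6%, 24.9% and 19.0%. Actg2, Cnn1 and Des were each found in under 10% of cells in any library: in 4.24%, 9.16% and 0.757% for Actg2, 3.28%, 5.91% and 0.694% for Cnn1, and 4.24%, 6.50% and 0.946% for Des. The shares of Tpm1 and Myl9 thus differed little between libraries. Those of Actg2, Cnn1 and Des were many times lower in Matrigel than in the antibody and IgG libraries, and differed less between antibody and IgG.

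Summed over the 9 genes, a thinned cell held a median of 4 UMIs in the antibody library, 5 with IgG and 2 in the Matrigel library. The 90th percentiles were 16, 26 and 9 UMIs, the 99th 42, 68 and 35, and the highest cells held 61, 132 and 58 UMIs. Toward the top the antibody library came closer to Matrigel, and IgG stayed above both. The top values rest on few of the 519, 1354 and 1586 cells, and the highest value also depends on that number. At least 10 UMIs were reached by 21.2% of antibody cells, 32.3% of IgG cells (29.8 to 34.8) and 9.58% of Matrigel cells (8.18 to 11.1). None of the 9 was detected in 10.8%, 8.71% and 25.3% of cells.

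**Figure D4:**
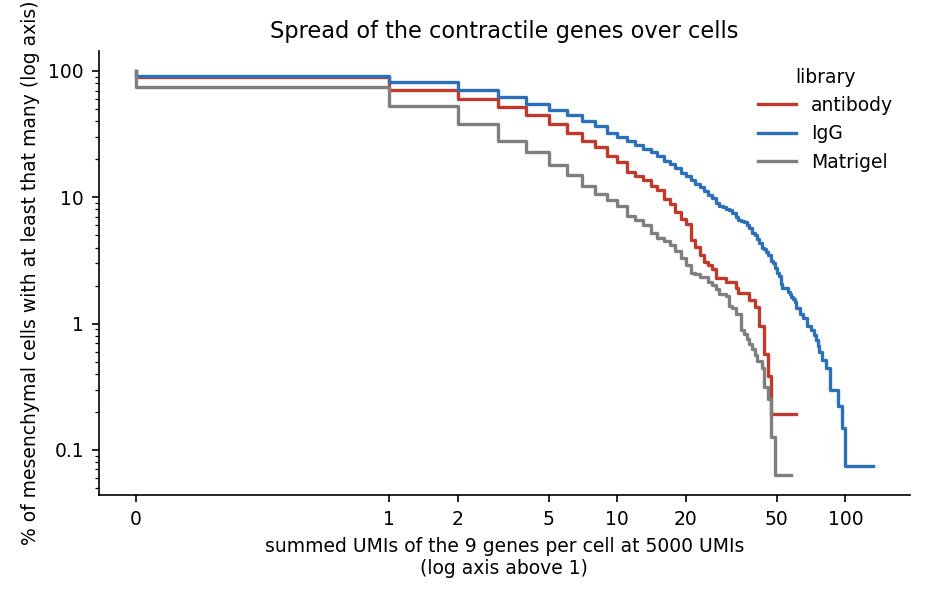
Share of mesenchymal cells (log axis, %) with at least a given number of summed UMIs of the 9 genes (horizontal axis, log above 1), each cell thinned to 5000 UMIs, in the antibody (519 cells), IgG (1354) and Matrigel (1586) libraries. The IgG curve reaches 132 UMIs, while the antibody and Matrigel curves end at 61 and 58.

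Within cells, Acta2 went most closely with Tagln and Tpm2. Over the thinned cells, Spearman correlations of Acta2 with Tagln were 0.51, 0.61 and 0.51 in the antibody, IgG and Matrigel libraries, and with Tpm2 0.59, 0.62 and 0.46. With Myl9 they were 0.21, 0.55 and 0.26. These are descriptions over 519, 1354 and 1586 cells that share a library and a depth. Cells with both Acta2 and Tagln were 1.84, 1.51 and 3.15 times as many as the product of the shares of each gene gives.

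Inhba-positive cells are those with at least 1 Inhba UMI among 5000, and in each library they carried more of most contractile genes. Before thinning, 349 of 592, 1086 of 1478 and 228 of 1982 mesenchymal cells held an Inhba UMI, beside 66 of 4655, 109 of 3874 and 13 of 6130 blood cells of far lower depth (medians 3443, 3225 and 2980 UMIs). There were 261 positive and 258 negative cells with antibody, 854 and 500 with IgG, and 136 and 1450 with Matrigel alone. Of the members with at least 10 UMIs, 6 of 8 were higher in the antibody library (9.92% of 9789 genes were higher and 12.9% lower), 6 of 8 in the IgG library (3.78% of 11469 genes higher, 8.62% lower) and 6 of 7 in the Matrigel library (6.04% of 12133 genes higher, 6.16% lower). No member was lower in any library. Before thinning the positive cells were also the deeper ones, with medians of 26865 UMIs against 16276.5 in negative cells of the antibody library, 19073.5 against 16431 in IgG and 13042 against 9682.5 in Matrigel.

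Acta2 had 541 CPM in Inhba-positive and 130 CPM in Inhba-negative cells of the antibody library, a ratio of 4.15 (3.51 to 4.94). In the IgG library it had 913 and 533 CPM, a ratio of 1.71 (1.61 to 1.82), and in the Matrigel library 422 and 124 CPM, a ratio of 3.41. The difference in ratio between libraries was not tested, and without thinning the ratios were 3.96, 3.76 and 3.58 in antibody, IgG and Matrigel. In the IgG library the other called genes also gave higher ratios without thinning, between 2.69 for Tagln and 8.07 for Actg2. Without cartilage-gene cells it was 4.55 in the antibody library and 2.27 in the IgG library. Tpm2 was higher in Inhba-positive cells of all 3 libraries, by 3.59, 2.33 and 2.53 times, and Tagln by 4.55, 1.78 and 2.81 times in antibody, IgG and Matrigel.

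Actg2 was 28.7 times as high in Inhba-positive cells of the antibody library, which rests on 29 UMIs in 261 positive cells against 1 UMI in 258 negative cells (interval 4.75 to 1171). With another random draw of the UMIs the ratio was 2.80 (1.31 to 6.47). It was 2.70 times as high in IgG. In Matrigel 1.78 was not called, but another draw gave 6.16 (1.90 to 17.7) and no thinning 11.7 (6.56 to 21.7), which pass. Cnn1 was 8.40 times as high in the antibody library (17 against 2 UMIs) and 2.05 times in IgG, and had too few UMIs in Matrigel and, in another random draw, in antibody. Myl9 was called in Matrigel, at 2.24, and not in antibody, at 1.18, or IgG, at 1.27, although another random draw gave 1.59 in IgG, which passes, and no thinning gave 2.51 in IgG and 1.49 in Matrigel. Des was called in IgG, at 2.00. In Matrigel its call, at 4.1 on 5 UMIs against 13, was lost in another draw (1.95, 0.369 to 6.61) and without thinning (1.86), while in antibody the uncalled 1.68 became 3.45 and passed in another draw. Which of the rare genes Actg2, Cnn1 and Des pass therefore depends on the draw in antibody and Matrigel. Tpm1 was called in antibody, at 1.62, and Matrigel, at 1.68. Read the other way, 77.2%, 70.7% and 19.1% of cells with Acta2 held Inhba in the antibody, IgG and Matrigel libraries, where 50.3%, 63.1% and 8.58% of all thinned cells did.

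Scx marked fewer cells, 15 of 519 with antibody, 190 of 1354 with IgG and 26 of 1586 with Matrigel alone. Before thinning, 56 of 592, 440 of 1478 and 46 of 1982 mesenchymal cells held an Scx UMI, beside 13 of 4655, 21 of 3874 and 12 of 6130 blood cells. In the Scx-positive cells of the IgG library 6 of 8 contractile genes were higher and 0 lower (1.80% of 11880 genes were higher and 4.83% lower): Tagln at 580 against 214 CPM in negative cells (ratio 2.71, 2.44 to 2.99), Acta2 at 1444 against 663 CPM (2.18, 2.05 to 2.32), and Cnn1 (2.61), Myl9 (2.54), Actg2 (2.53) and Tpm1 (1.58). Tpm2 (1.45) and Des (1.39) were not called. Without thinning Tpm1 gave 1.40 and was not called, and without cartilage-gene cells Tpm2 gave 1.62 and was.

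The ratios in the Matrigel library were the highest of the 3 for every measured gene but Des, which had 0 UMIs in Scx-positive cells there, and the difference between libraries was not tested. Among its 26 Scx-positive cells, Tagln had 1246 CPM against 106 CPM in the rest (11.8, 9.89 to 14.0) and Acta2 900 CPM against 137 CPM (6.58, 5.39 to 7.97). Actg2 gave 14.1 on 4 UMIs against 17, and 56.9 in another draw. In all, 6 of 7 genes were higher and 0 lower (3.24% of 12249 genes were higher and 3.58% lower). With 15 Scx-positive cells in the antibody library, 2 of 8 were higher and 0 lower (2.75% of 10538 genes were higher and 2.44% lower): Acta2, at 733 against 325 CPM (2.26, 1.69 to 2.97), and Tpm1 (1.55). In another random draw of UMIs Acta2 gave 1.07 there (0.713 to 1.55), and Tpm1 lost its call without thinning (1.48), so this library gives no firm value. Cells with Acta2, Inhba and Scx together numbered 7 of 519 (1.35%) in antibody, 102 of 1354 (7.53%) in IgG and 5 of 1586 (0.315%) in Matrigel.

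**Figure D5:**
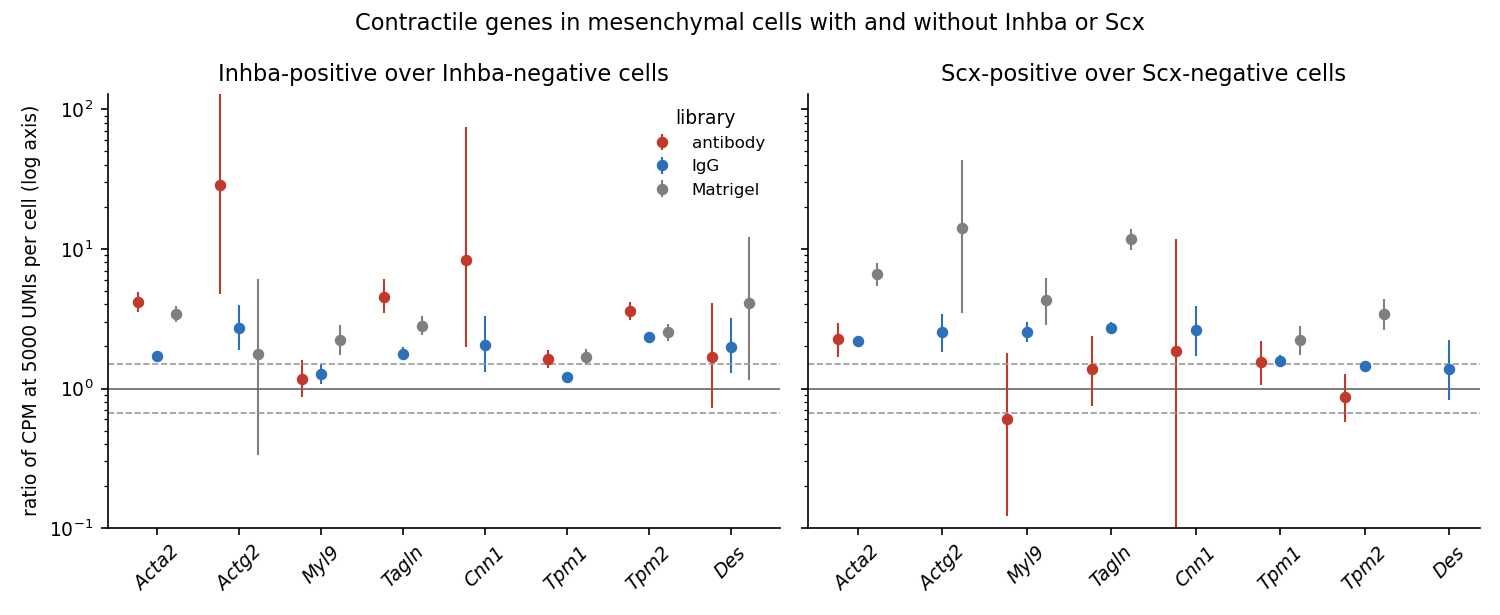
Ratio of CPM (log axis) of the contractile genes between Inhba-positive and Inhba-negative cells (left) and between Scx-positive and Scx-negative cells (right) of the antibody, IgG and Matrigel libraries, at 5000 UMIs per cell, with exact 95% intervals; genes with too few UMIs, or with 0 in the positive cells, are not drawn, and intervals are cut at the ends of the axis. Tpm2 lies above the upper dashed line of 1.5 in all 3 libraries for Inhba, and for Scx the Matrigel points are the highest, with Tagln at 11.8.

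Genes with a pattern over cells most like the sum of the 9 were ranked by the mean Pearson correlation in the 3 libraries, among 7843 genes detected in at least 10% of the mesenchymal cells of each. The leading 10 were Lrrc15 (0.55), Csrp1 (0.54), Actb (0.53), Tnc (0.52), Cnn2 (0.50), Myl6 (0.50), Flna (0.50), Actn1 (0.50), Col8a1 (0.49) and Myl12a (0.48). Actn1 encodes the actin crosslinker alpha-actinin, Csrp1 a LIM-domain protein of the actin cytoskeleton, Flna encodes filamin A, Myl6 and Myl12a encode myosin light chains, Cnn2 a broadly expressed calponin, Tnc the matrix protein tenascin C and Col8a1 a short-chain collagen. The sum itself leaned on the abundant members: Acta2 correlated with it at 0.82, 0.88 and 0.69 in antibody, IgG and Matrigel, and Des at 0.27, 0.33 and 0.14. Between libraries, some of these genes followed the contractile genes and others did not. Tnc had 1623 CPM in antibody, 2332 CPM in IgG and 798 CPM in Matrigel, and Actn1 had 195, 308 and 169 CPM, both highest in IgG and lowest in Matrigel. Lrrc15, the first in rank, had 194 CPM in antibody, 172 CPM in IgG and 316 CPM in Matrigel. Col8a1 had 207, 421 and 440 CPM in that order, and Actb 4660, 4586 and 4524 CPM.

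A list of 37 other genes of actin regulation and SRF-MRTF control held calls in both directions. Of 36 measured members, 8 were higher and 5 lower in IgG than in Matrigel, where 14.2% of 14339 genes were higher and 19.3% lower. The median log2 ratio of the list was 0.12 beside -0.03 over all genes. Among the higher ones at 20 CPM or more, Mylk, the kinase that activates smooth muscle myosin, had 34.9 against 12.4 CPM (2.81 times), Myh9, the non-muscle myosin heavy chain, 389 against 206 CPM (1.89), Actn1 308 against 169 CPM (1.83) and Csrp2 1163 against 688 CPM (1.69). The lower ones included Fhl1 (31.0 against 117 CPM), Zyx (156 against 342 CPM) and Cyr61, a target of YAP and SRF (214 against 397 CPM).

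In antibody over IgG the same list had 3 genes higher and 6 lower of 36, with a median of -0.08. Over all 14009 genes, 8.26% were higher and 8.93% lower. Mylk fell the furthest of those at 20 CPM or more, to 10.4 CPM in antibody against 34.9 CPM in IgG (3.37-fold lower), followed by Cnn2 (0.602), Cnn3 (0.609) and Actn1 (0.632). Fhl1 (73.5 against 31.0 CPM), Itga5, an integrin chain (356 against 211 CPM), and Ctgf (336 against 199 CPM) were higher. Ctgf, a matricellular protein often induced by TGF-beta, thus went the other way from Acta2. In antibody over Matrigel 5 of 34 were higher and 6 lower, where 10.3% of 13772 genes were higher and 18.7% lower. Of the actin family list, Acta1, Actc1, Actb and Actg1, 3 were measured and the sole call was Acta1 in antibody over Matrigel, at 1.18 against 0.478 CPM.

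Outside the mesenchymal cells the contractile genes were scarce. Acta2 had 4.89 CPM in the antibody library (110 UMIs) and 24.4 CPM in the IgG library (413 UMIs), against 5.66 CPM in the Matrigel library (121 UMIs). In IgG over Matrigel, 6 of 9 were higher and 1 lower (15.9% and 8.03% of 13920 genes), in antibody over IgG 0 of 8 were higher and 5 lower (7.42% and 11.0% of 14177 genes), and in antibody over Matrigel 2 of 8 were higher and 3 lower (15.6% and 13.1% of 14161 genes). Blood cells held Acta2 at 0.745%, 1.84% and 1.97% of the mesenchymal level in antibody, IgG and Matrigel. The fibroblast genes Dcn and Lum stood in the same blood cells at 0.505%, 1.37% and 0.651%, and at 0.681%, 2.13% and 1.13% of their mesenchymal levels. The values of Acta2 were thus above those of Dcn, with intervals that touch in antibody (0.574 to 0.951 for Acta2, 0.439 to 0.578 for Dcn). Its interval overlapped that of Lum in antibody (0.544 to 0.842 for Lum) and in IgG (1.61 to 2.08 for Acta2, 1.90 to 2.39 for Lum), and lay above it in Matrigel (1.56 to 2.46 for Acta2, 0.988 to 1.28 for Lum). Tpm1 stood higher, at 8.68%, 8.72% and 12.0% of its mesenchymal level, in all 3 libraries.

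In the antibody and IgG libraries, nearly all Des of the other cells lay in cells with skeletal muscle markers. Its level was 10.9 CPM in antibody (246 UMIs), 11.6 CPM in IgG (197 UMIs) and 0.655 CPM in Matrigel (14 UMIs), and 241 of the 246 antibody UMIs lay in 18 cells with at least 2 muscle markers, as did 185 of the 197 IgG UMIs in 24 such cells and 5 of the 14 Matrigel UMIs in 12. A further 6 of the Matrigel UMIs lay in 1 cell that also held Myh11. In those cells Acta2 had 3 UMIs in antibody and 50 in IgG. Myh11 had 0 UMIs in antibody and IgG and 29 UMIs in Matrigel, at least 10.2-fold lower in antibody and at least 7.66-fold lower in IgG than in Matrigel when 0 is taken as 3 UMIs. Of the 29, however, 28 came from 1 cell. The sole lower call among the contractile genes of other cells in IgG over Matrigel is Myh11. That call, and the lower call of Myh11 in antibody over Matrigel, therefore rest on this cell.

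The limit of 1% for collagen UMIs sets who counts as mesenchymal. Cells just inside it, with 1 to 2%, had Acta2 at 268 CPM in antibody (62 cells), 330 CPM in IgG (161 cells) and 422 CPM in Matrigel (26 cells). Cells just outside, with 0.5 to 1%, had 126 CPM (21 cells), 222 CPM (68 cells) and 27.4 CPM (46 cells).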

How the data were processed

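Single cells were captured with the 10X Single Cell 3' v3 kit, per the labels' protocols. The authors deposited raw UMI counts per gene and barcode, which the file headers and the whole-number values show. Cell Ranger 3.0.2 and mm10 come from the submitters' processing notes; the sources used here give neither annotation release nor cell-calling settings. Barcodes under 300 genes or 500 UMIs, or over 15% mitochondrial UMIs, were dropped. Scrublet (scanpy 1.11.5) called 4, 3 and 2 doublets in the antibody, IgG and Matrigel libraries by its own threshold, under the share at which it can be trusted, so the highest scores were removed at 0.8% per 1000 cells (285, 284 and 681 cells). UMIs were summed per library. Levels have exact Poisson, shares Clopper-Pearson and ratios conditional binomial 95% intervals (scipy 1.17.1). Only the ratio calls and their intervals were tried on simulated counts, which held counting error alone. Intervals and floors of 3 counts cover counting error only. Members, lists and the rule for named genes (the members, Inhba, Scx, the 10 most alike genes, and up to 4 called genes of each list at 20 CPM or more) were chosen with earlier results of these data known.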

Additional observations from a re-analysis of the deposited data

How the results depend on the processing

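No paired analysis was possible because each group has 1 library. Of 218 recounts of higher or lower genes under an alternative, 202 were within 1.5 times the reported count, and of 583 recomputed ratios of called genes 544 kept their call. A recount of 0 beside a reported 0 was taken as within. That holds for every lower count with Inhba or Scx and, in mesenchymal cells, for every lower count over Matrigel. It also holds for every higher count for antibody over IgG. A large part of the 202 therefore does not bear on counts above 0, while the 16 recounts that moved all had a reported count above 0. In mesenchymal cells, leaving out cells with 2 of all 10 mural markers gave 8 lower genes for antibody over IgG and 3 higher for antibody over Matrigel, and a threshold of 2 times gave 3 lower for antibody over IgG. In other cells, a collagen limit of 0.5% gave 3 lower for antibody over IgG, and one of 2% gave 4 higher and 1 lower for antibody over Matrigel, with Tagln at 1.33 in place of lower. For Inhba, a threshold of 2 times gave 3 higher in IgG, and thinning to 1000 UMIs gave 2 higher in Matrigel. For Scx, thinning to 1000 UMIs gave 0 higher in antibody and 3 in IgG. The antibody count for Scx was 5 without thinning and 1 with a collagen limit of 2%, without cartilage-gene cells, without cells with 2 mural markers, with a threshold of 2 times or with another random draw. Without cells with 2 mural markers, Acta2 gave 0.964 in antibody (0.0242 to 5.46) and Cnn1 0.50 in IgG (0.0574 to 2.01) for Scx. Both intervals are wide and hold 1, so neither ratio was called. The cause of these changes was not tested. The alternatives without 2 of 8 mural markers, without blood markers, without muscle markers and with another draw were chosen after seeing the data. Scaling by the median of gene ratios shifted all genes by 0.04, 0.07 and 0.12 on the log2 scale for IgG over Matrigel, antibody over IgG and antibody over Matrigel. Myh11 had too few UMIs to be measured in mesenchymal cells, and the rare genes Cnn1, Des and Actg2 had few. Whether depth limits these genes was not tested.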

Other observations

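A single cell of the Matrigel library, outside the mesenchymal cells and chosen here after its values were seen, carried all 9 contractile genes. It held 28 of the library's 29 Myh11 UMIs outside the mesenchymal cells, with 34 UMIs of Acta2, 21 of Tpm1, 15 of Tpm2, 14 of Myl9, 9 of Tagln, 6 of Des, 5 of Actg2 and 4 of Cnn1. Together these were 136 of its 2703 UMIs, or 5.03%. It held 4 UMIs of Col1a1 and none of Inhba, Scx, Rgs5, Ndufa4l2 or Notch3.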
